A study of Mus musculus with 16 samples.

Results

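The lysosome is the acidic compartment in which cells break down glycans, lipids, proteins and nucleic acids. Soluble hydrolases do the cutting, the vacuolar ATPase (v-ATPase) pumps protons into the lumen through its membrane-embedded V0 sector with energy from its cytosolic V1 sector, and heavily glycosylated membrane proteins line the inside. Transcription factors of the MiT/TFE family (TFEB, TFE3 and MITF) enter the nucleus when the kinase complex mTORC1 is off and activate many lysosome genes through E-box sequences built on CACGTG. Macrophages carry many lysosomes, and in obese adipose tissue they take up lipid released by adipocytes and degrade it there.

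The genes described were 38 lysosome genes chosen by name, out of 55421 genes listed: 10 glycosidases, 4 sulfatases, 6 lipid hydrolases, activators and sterol carriers, a group of 4 holding a peptidase, 2 phosphatases and progranulin, 4 other membrane proteins, 4 subunits of the V0 sector, 3 of the V1 sector and the 3 MiT/TFE factors. Cathepsins were not among them. All 38 were found in the files and all 38 passed the filter on low counts in every fit, so none was left out. They were measured by RNA-seq in 16 libraries of C57BL/6 mice, all on the diet that the labels call HFD, with 2 libraries in each of 8 groups. The groups crossed tissue (WAT or liver), genotype and treatment: GPR132fl/fl mice, in which the receptor gene is only floxed (fl/fl below), and Lyz2_cre+/_GPR132fl/fl mice (labelled CKO), in which Cre is driven by the myeloid gene Lyz2, each given control vehicle or NOX_6_18, named as an antagonist of the receptor GPR132. The labels give no age, sex or dose and do not say whether the 2 libraries of a group came from different animals, so p-values speak only to the spread from library to library, part of which may be technical.

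Libraries held between 45624957 and 60761705 counts, and each of the 38 genes had counts in every library except Atp6v0d2, which had 0 in a liver library of fl/fl mice on NOX_6_18. The protocol in the labels names frozen tissue and macrophage RNA. All 14 pan-macrophage markers were detected in both tissues, with a summed level of 8150 to 12179 CPM (the count over its library's total, scaled by trimmed mean of M values, TMM, within a tissue) in WAT and 2901 to 3159 in liver, but the libraries also held fibroblast markers (10994 to 21399 CPM in WAT), endothelial markers (3415 to 3557 in liver) and hepatocyte markers (2634 to 2982 in liver). Adipoq, the adipocyte marker adiponectin, stood at 5.74 to 12.4 CPM in WAT and at 0 to 0.078 in liver. The pair of vehicle-treated fl/fl libraries from WAT stood apart from the other 6: spermatid markers summed to 16.4 and 20.9 CPM there and to 631 to 700 in the other 6, and TMM factors were 0.913 and 0.921 there and about 1.03 in the others. A chi-square, averaged over genes, compared the counts of the 2 libraries of a group. It was 46.6 for that pair and 23.8 to 30.9 in the other WAT groups. In liver it was 91.4 in libraries labelled CKO on vehicle and 15.9 to 20.9 in the other groups. Counts of Gpr132 did not follow the genotype labels in all groups: the gene was at 72.5 and 69.7 CPM in WAT of fl/fl mice on vehicle, 60.3 and 60.1 in fl/fl on NOX_6_18, 35.6 and 64.6 in libraries labelled CKO on vehicle and 56.5 and 59.1 in those labelled CKO on NOX_6_18, and in liver at 4.26 and 4.04, 2.13 and 1.64, 1.86 and 1.46, and 2.81 and 2.41 in the same order. Whole-gene counts do not show which exons were read, so genotype is given below as labelled: "for CKO" stands for libraries labelled CKO against fl/fl, both on vehicle. On vehicle Gpr132 was lower in liver for CKO, by -1.32 ± 0.24 on the log2 scale (SE, n = 2 libraries a group, edgeR adjusted p = 0.0162), and was not called in WAT (-0.51 ± 0.22, adjusted p = 0.115). On NOX_6_18 the genotypes were not called different in either tissue (adjusted p = 1 in both).

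The 38 genes took 1.51 and 1.56% of all counts in vehicle-treated fl/fl WAT, 1.07 to 1.10% in the other 6 WAT libraries and 0.412 to 0.438% in liver. Their summed level was 17094 and 16444 CPM in WAT of fl/fl mice on vehicle (the controls below), 10394 and 10518 in fl/fl on NOX_6_18, 10706 and 10466 in libraries labelled CKO on vehicle, and 10447 and 10505 in those labelled CKO on NOX_6_18. The first pair lay above all others, and the other 6 differed little among themselves, at 62.7% of the mean of the first pair. In liver the sum lay between 4114 and 4298 CPM in all 8 libraries.

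**Figure D1:**
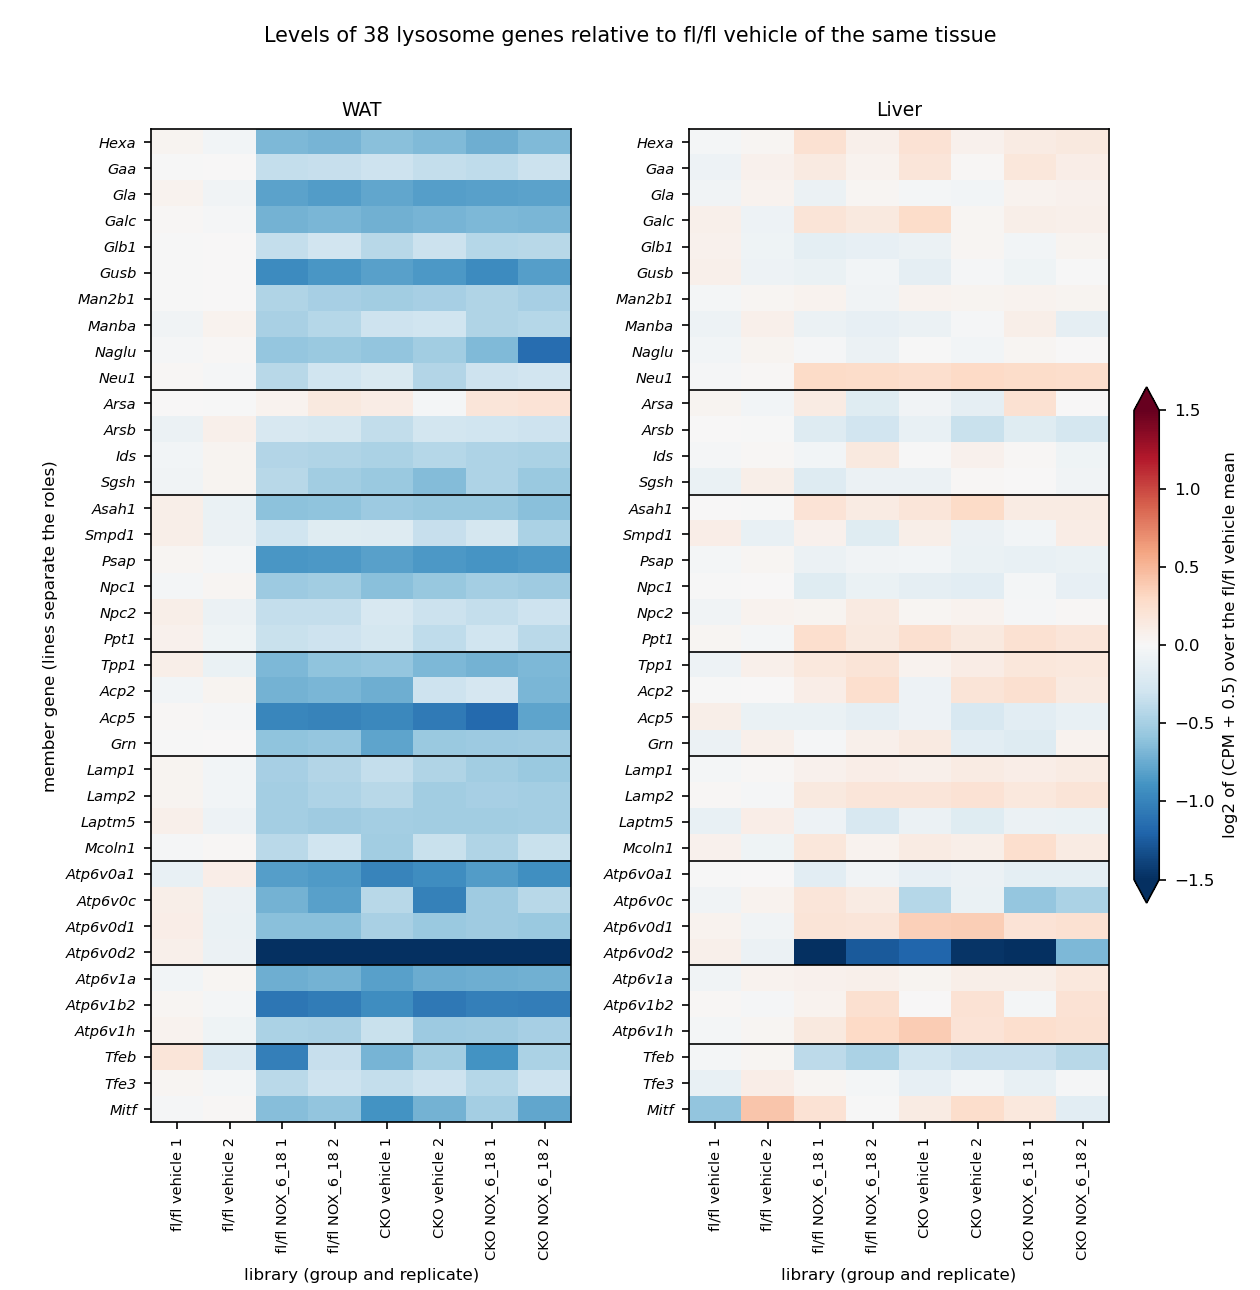
Level of each of the 38 genes (rows, grouped by role) in each library (columns) as log2 of CPM + 0.5 over the fl/fl vehicle mean of the same tissue, WAT on the left and liver on the right; red is higher and blue lower. Nearly every row is blue in the 6 WAT libraries that are not fl/fl vehicle, except Arsa, while liver shows pale rows other than Atp6v0d2.

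The first comparison asked what NOX_6_18 changed in WAT of fl/fl mice. Of the 38 genes, 35 were lower on NOX_6_18 and 0 higher at an adjusted p under 0.05 (edgeR's quasi-likelihood test, Benjamini-Hochberg over all 25871 genes tested in WAT), where 13.2% of all genes tested were lower. Their median log2 fold change was -0.557, against 0.12 over all genes tested. Among the 11293 genes with a mean of at least 10 CPM, which include all 38, 27.2% were lower and the median was -0.12. The same 2 control libraries served the comparison of genotypes on vehicle, so the values of both are given side by side and do not support each other: there, 35 of 38 were lower and 0 higher, against 12.4% of all genes lower, with a median of -0.542 and 0.099 over all genes. Among the genes with a mean of at least 10 CPM, 25.9% were lower for CKO and the median was -0.126. In 37 of the 38 genes both fl/fl vehicle libraries lay above all 6 other WAT libraries, an order found in 20.8% of all genes tested. In bulk RNA, fewer cells of a type and less RNA per cell cannot be told apart.

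Markers of several cell types moved with these groups in WAT. The 14 pan-macrophage markers summed to 12179 and 11233 CPM in fl/fl vehicle libraries and 8150 to 8493 in the other 6 (70.6%), with 10 lower and 2 higher of 14 on NOX_6_18. The 8 lipid-associated macrophage markers summed to 8236 and 8038 against 3414 to 3639 CPM (43.2%), and all 8 were lower. The sums of fibroblast and endothelial markers stood at 52.7 and 74.9% of the fl/fl vehicle mean, while all 6 spermatid markers and all 5 epididymis markers were higher. The 6 adipocyte markers did not move together: their sum, nearly all Fabp4 (2191 and 1980 CPM against 1225 to 1396), stood at 62.3%. On NOX_6_18 3 were higher and 2 lower with a median of 0.104. Adipoq was at 8.7 and 5.74 CPM in controls and 10.8 to 12.4 in the rest. The summed level of the 38 genes over that of the pan-macrophage markers was 1.40 and 1.46 in fl/fl vehicle libraries and 1.26 to 1.28 in the other 6 WAT libraries. In liver this ratio was also highest in the fl/fl vehicle libraries, at 1.41 and 1.47 against 1.33 to 1.37 in the other 6. The part these markers have in the result was not tested.

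**Figure D2:**
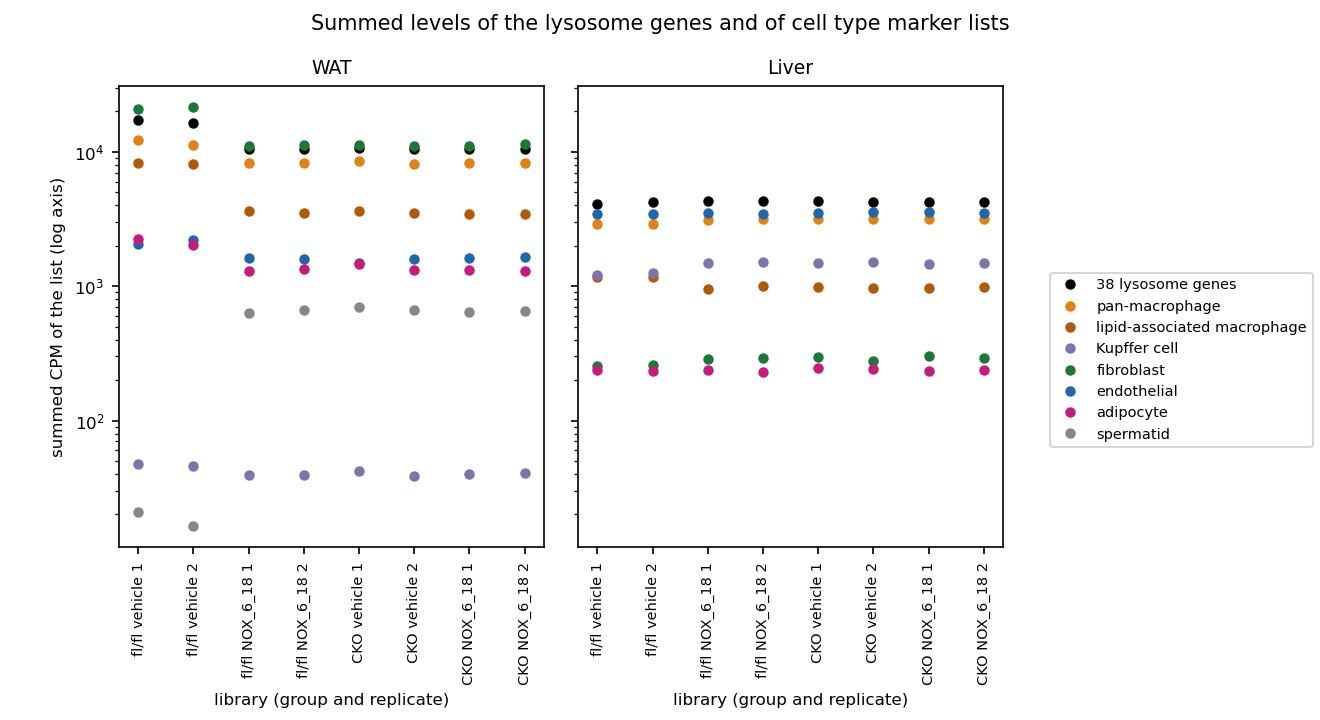
Summed CPM (log axis) of the 38 lysosome genes and of 7 cell type marker lists in each library; each point is 1 library. In WAT the lysosome genes (16444 and 17094 CPM in controls, 10394 to 10706 in the rest) are lower outside the controls. The macrophage and fibroblast lists are lower there too and the spermatid list is higher, while the adipocyte sum is nearly all Fabp4. In liver the sum of the lysosome genes is nearly level (4114 to 4298 CPM). Against the fl/fl vehicle pair of liver (1220 and 1260 CPM), the Kupffer cell list is higher in the other 6 libraries (1472 to 1523). The lipid-associated macrophage list is lower there (958 to 996 against 1168 and 1173) and the fibroblast list higher (278 to 301 against 253 and 259). The spermatid list had liver libraries at 0 and is not drawn.

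Proton pump subunit Atp6v0d2 showed the largest difference of the 38 in both comparisons. The gene (ENSMUSG00000028238, chr4:19876841-19922605, minus strand, GRCm38), which encodes the d2 isoform of a V0 subunit found in macrophages and osteoclasts, stood at 199.6 and 178.3 CPM in WAT of fl/fl mice on vehicle, 61.5 and 59.3 on NOX_6_18, 66.4 and 60.3 in libraries labelled CKO on vehicle and 59.8 and 56.8 in those labelled CKO on NOX_6_18. The controls lay far above the other 6, which overlapped one another. The log2 fold change was -1.65 ± 0.09 (SE, n = 2 libraries a group, adjusted p = 2.4e-06) for NOX_6_18 and -1.58 ± 0.09 (adjusted p = 3.05e-06) for CKO on vehicle. Atp6v1b2 (ENSMUSG00000006273, chr8:69088646-69113711, plus strand), the nucleotide-binding B2 subunit of V1, stood at 345.9 and 331 CPM in controls, 159.5 and 163.4 on NOX_6_18, 176.8 and 161 labelled CKO on vehicle and 165.6 and 165.1 labelled CKO on NOX_6_18, again with no overlap between controls and the rest. Its log2 fold changes were -1.07 ± 0.07 (adjusted p = 6.64e-06) and -1.003 ± 0.07 (adjusted p = 9.52e-06).

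All 4 V0 and all 3 V1 members were lower in both comparisons, and their summed levels in the other 6 libraries were 55.6% and 56.1% of the controls. Atp6v0a1, a membrane subunit of the proton path, went from 204.9 and 236.8 CPM to 111 to 124 in the other 6 (-0.84 ± 0.08, adjusted p = 9.83e-05, on NOX_6_18, and -0.97 ± 0.08, adjusted p = 4.28e-05, for CKO). Atp6v1a, the catalytic subunit, went from 313.2 and 328.9 to 183 to 196 CPM (-0.72 ± 0.06 and -0.78 ± 0.06). Atp6v0d1, the broadly expressed d isoform, fell by 0.63 ± 0.08 and 0.53 ± 0.08. Atp6v0c, the proteolipid of the rotor ring, was lower by -0.76 ± 0.17 (adjusted p = 0.00831) and -0.69 ± 0.17 (adjusted p = 0.0134), but its replicates disagreed, with 279 and 184.3 CPM in the 2 libraries labelled CKO on vehicle. Atp6v0c lost its call on NOX_6_18 without the second NOX_6_18 library (adjusted p = 0.0644) and for CKO without the first control library (0.0581). A copy listed as Atp6v0c-ps2 had up to 1714 counts in a library, so reads of Atp6v0c may be split and its counts are uncertain. Atp6v1h, a V1 subunit, changed by -0.48 ± 0.09 on NOX_6_18.

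Glycosidases remove sugars from glycoproteins, glycolipids and glycosaminoglycans. All 10 were lower in both comparisons, with medians of -0.526 and -0.537 and a summed level of 1492 to 1528 CPM in the other 6 libraries against 2265 and 2241 in controls. Gusb, β-glucuronidase, stood at 318.7 and 319.2 CPM in controls and at 166 to 181 in the other 6 (-0.91 ± 0.07, adjusted p = 1.55e-05, and -0.84 ± 0.07, adjusted p = 2.49e-05). Gla, α-galactosidase A, which clears globotriaosylceramide, went from 77 and 71.5 to 41.2 to 43.1 CPM (-0.83 ± 0.08 and -0.81 ± 0.08). Hexa, the α subunit of β-hexosaminidase, changed by -0.69 ± 0.06 and -0.64 ± 0.06, and Galc, which removes galactose from galactosylceramide, by -0.70 ± 0.07 and -0.71 ± 0.07. Naglu, which acts on heparan sulfate, was lower by -0.58 ± 0.14 on NOX_6_18 (adjusted p = 0.012), and its 2 libraries labelled CKO on NOX_6_18 differed, at 49.4 and 35.4 CPM. Without the first or the second NOX_6_18 library the adjusted p of Naglu was 0.0671 and 0.0663. Gaa, acid α-glucosidase of lysosomal glycogen, and Man2b1, lysosomal α-mannosidase, were lower as well, from 170.3 and 171.4 to 131 to 138 CPM and from 722 and 731.4 to 506 to 531 CPM. Their direction depended on the scaling: with a trend of GC content and length removed and libraries recentred, the log2 fold changes were 0.14 and 0.04 on NOX_6_18 (both singled out after their values were seen). The remaining 3, Glb1, Manba and Neu1, which take galactose, mannose and sialic acid off glycans, stood at 81.8 to 89.7 CPM in controls and 61 to 70.7 in the other 6. With library totals, Glb1 and Neu1 were not called on NOX_6_18 (adjusted p = 0.121 and 0.129). None of these 3 was called for CKO with that scaling (0.0604, 0.174 and 0.194, singled out after their values were seen).

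Sulfatases cut sulfate from glycans and sulfatides, and they held the exception. Arsa (ENSMUSG00000022620, chr15:89472476-89477425, minus strand), arylsulfatase A of sulfatide breakdown, stood at 66.6 and 66 CPM in controls, 68.8 and 73.2 on NOX_6_18, 71.4 and 65 labelled CKO on vehicle and 75.3 and 76.4 labelled CKO on NOX_6_18. The groups overlapped, and the differences of 0.10 ± 0.08 (adjusted p = 0.356) and 0.04 ± 0.08 (adjusted p = 0.727) did not pass; scaled by library totals alone the first was 0.26 with an adjusted p of 0.028, and after removal of the GC and length trend 0.34 with 0.00579. Exons of Arsa overlap C230037L18Rik on the opposite strand, and the strand setting of the counting is not given in the sources used here, so its counts are uncertain. The other 3, Arsb, Ids and Sgsh, were lower in both comparisons; Sgsh, which acts on heparan sulfate, went from 46.2 and 49.4 to 30.1 to 35.6 CPM and Ids, iduronate 2-sulfatase, from 178.1 and 188.4 to 131 to 137. The call of Arsb, which acts on dermatan sulfate, was held on NOX_6_18 in 5 of 14 alternatives, the fewest of the 35. Its change of -0.25 (adjusted p = 0.0345) became -0.09 with library totals (adjusted p = 0.45) and -0.06 after the GC and length correction (0.489). After that correction Sgsh was at -0.08 (adjusted p = 0.487). Both were singled out after their values were seen.

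Among proteins of lipid breakdown, Psap (ENSMUSG00000004207, chr10:60277627-60302597, plus strand), the precursor of the saposins that present sphingolipids to hydrolases, had the smallest adjusted p of the 38. It stood at 6871 and 6630 CPM in controls, 3682 and 3726 on NOX_6_18, 3826 and 3725 labelled CKO on vehicle and 3660 and 3728 labelled CKO on NOX_6_18, so that the controls were clear of all others. The log2 fold changes were -0.87 ± 0.03 (adjusted p = 5.12e-07) and -0.84 ± 0.03 (adjusted p = 5.94e-07). Asah1, acid ceramidase, changed by -0.62 ± 0.07 and -0.56 ± 0.07, and Npc1, the membrane transporter that moves cholesterol out of the lysosome, by -0.54 ± 0.06 and -0.60 ± 0.06. Npc2, the soluble cholesterol carrier that hands sterol to NPC1, and Ppt1, a thioesterase that removes palmitate from proteins, were lower in both. For CKO, Npc2 was not called with library totals (-0.11, adjusted p = 0.214) or after the GC and length correction (-0.08, adjusted p = 0.363). Ppt1 was not called with library totals in either comparison (-0.16 in both, adjusted p = 0.148 and 0.157; both genes singled out after their values were seen). Smpd1, acid sphingomyelinase, was not called, at 45.4 and 40 CPM in controls and 30.6 to 37.6 in the other 6. Its changes were -0.24 ± 0.11 (adjusted p = 0.136) and -0.27 ± 0.11 (adjusted p = 0.105), and it too was singled out after its values were seen.

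The group of a peptidase, phosphatases and progranulin was lower in full (4 of 4 in both). Acp5, tartrate-resistant acid phosphatase, a marker of osteoclasts and of some tissue macrophages, was at 59.9 and 58.6 CPM in controls and at 29.9 and 29.2, 30 and 28.1, and 26.2 and 34 in the other 3 groups in the order used above. Its log2 fold changes were -1.004 ± 0.12 (adjusted p = 0.000373) and -1.03 ± 0.12 (adjusted p = 0.000331). Tpp1, a tripeptidyl peptidase, changed by -0.64 ± 0.08 and -0.63 ± 0.08, and Grn, progranulin, which is cut into granulins in the lysosome, by -0.59 ± 0.07 and -0.66 ± 0.07. Acp2, lysosomal acid phosphatase, changed by -0.70 ± 0.17 and -0.51 ± 0.17 (adjusted p = 0.0441 for the second), with uneven replicates of 60.2 and 81 CPM among libraries labelled CKO on vehicle. On NOX_6_18, Acp2 was not called without the first or the second NOX_6_18 library (adjusted p = 0.064 and 0.0634), nor for CKO without either control library (0.0836 and 0.126) or the first CKO library (0.236). For CKO the call of Acp2 was held in 6 of 14 alternatives, the fewest of the 35. Its edgeR adjusted p there was 0.162 with library totals and 0.1 with TMM computed on genes of at least 1 CPM in every library (singled out after its values were seen). Exons of Acp2, Acp5 and Grn overlap those of a gene on the opposite strand. The 4 other membrane proteins were lower in both comparisons: Lamp1 and Lamp2, the main glycoproteins of the lysosomal membrane, Laptm5, of blood cell lysosomes, and Mcoln1, the calcium channel TRPML1. The call of Mcoln1 was held in 8 of 14 alternatives on NOX_6_18 and in 11 for CKO. On NOX_6_18 its adjusted p was 0.154 with library totals and 0.266 after the GC and length correction (singled out after its values were seen). Lamp2 went from 732 and 694.4 to 495 to 533 CPM and Laptm5 from 797.4 and 715.3 to 521 to 531, and their log2 fold changes on NOX_6_18 were -0.49 ± 0.06 and -0.53 ± 0.06.

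Of the MiT/TFE factors, Mitf was lower by -0.62 ± 0.11 (adjusted p = 0.0027) and -0.81 ± 0.11 (adjusted p = 0.00067), from 72.3 and 74 CPM to 39 to 51.4. Tfe3 was lower from 97.8 and 94 to 71.2 to 77.4 CPM, but its direction also turned with the GC and length trend removed, at 0.02 on NOX_6_18 and 0.09 for CKO (it too was singled out after its values were seen). Tfeb stood at 42.1 and 31.9 CPM in controls, 18 and 29 on NOX_6_18, 22.7 and 25.6 labelled CKO on vehicle and 19.6 and 26.4 labelled CKO on NOX_6_18. Both controls lay above the other 6, yet replicates were far apart, and -0.66 ± 0.24 (adjusted p = 0.0658) and -0.62 ± 0.24 (adjusted p = 0.0816) did not pass. Tfeb passed in 4 of 14 alternatives on NOX_6_18: DESeq2 (adjusted p = 0.0144), limma-voom, without the second control library (0.048) and without the second NOX_6_18 library (0.0187). For CKO it passed in 2, DESeq2 (0.0241) and only the groups compared. With the GC and length correction its changes were -0.16 and -0.12.

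**Figure D3:**
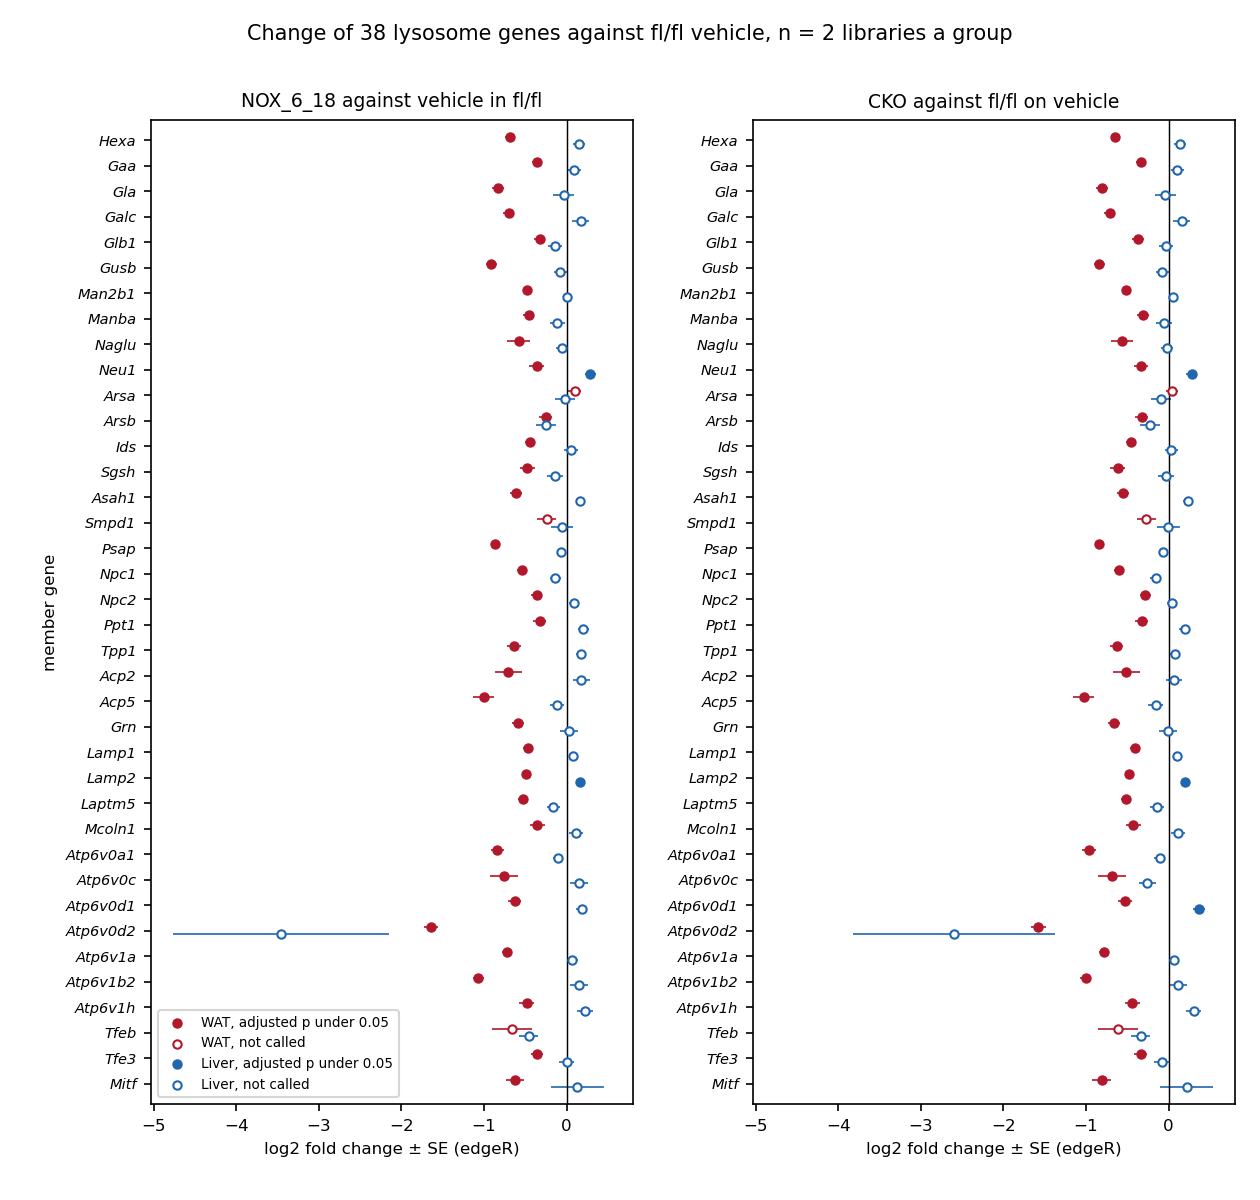
Log2 fold change with its SE (edgeR) of each of the 38 genes against fl/fl vehicle, for NOX_6_18 (left) and for CKO (right), in WAT (red) and liver (blue), n = 2 libraries a group; filled points have an adjusted p under 0.05. WAT points lie left of 0 except Arsa, at 0.10 and 0.04, and liver points lie near 0 except Atp6v0d2, whose level there was at most 1.37 CPM.

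Scaling moved the size of the WAT changes. With library totals alone the median of all genes shifted by 0.166 on NOX_6_18 and 0.165 for CKO, with the GC and length trend removed by -0.136 and -0.118, and with TMM computed on genes of at least 1 CPM in every library (chosen after seeing the data) by 0.108 and 0.102. On NOX_6_18 the 38 genes then gave 28, 28 and 31 lower and 1, 1 and 0 higher, with medians of -0.391, -0.67 and -0.449 beside 0.286, -0.016 and 0.228 over all genes. For CKO they gave 24, 28 and 29 lower and 0, 1 and 0 higher, with medians of -0.376, -0.652 and -0.439 beside 0.264, -0.019 and 0.201. Of all genes called on NOX_6_18, 65.1% were higher with TMM and 82.6, 50.2 and 76.9% under these 3, and for CKO 66.3% and 83.5, 50.6 and 77.4%.

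**Figure D4:**
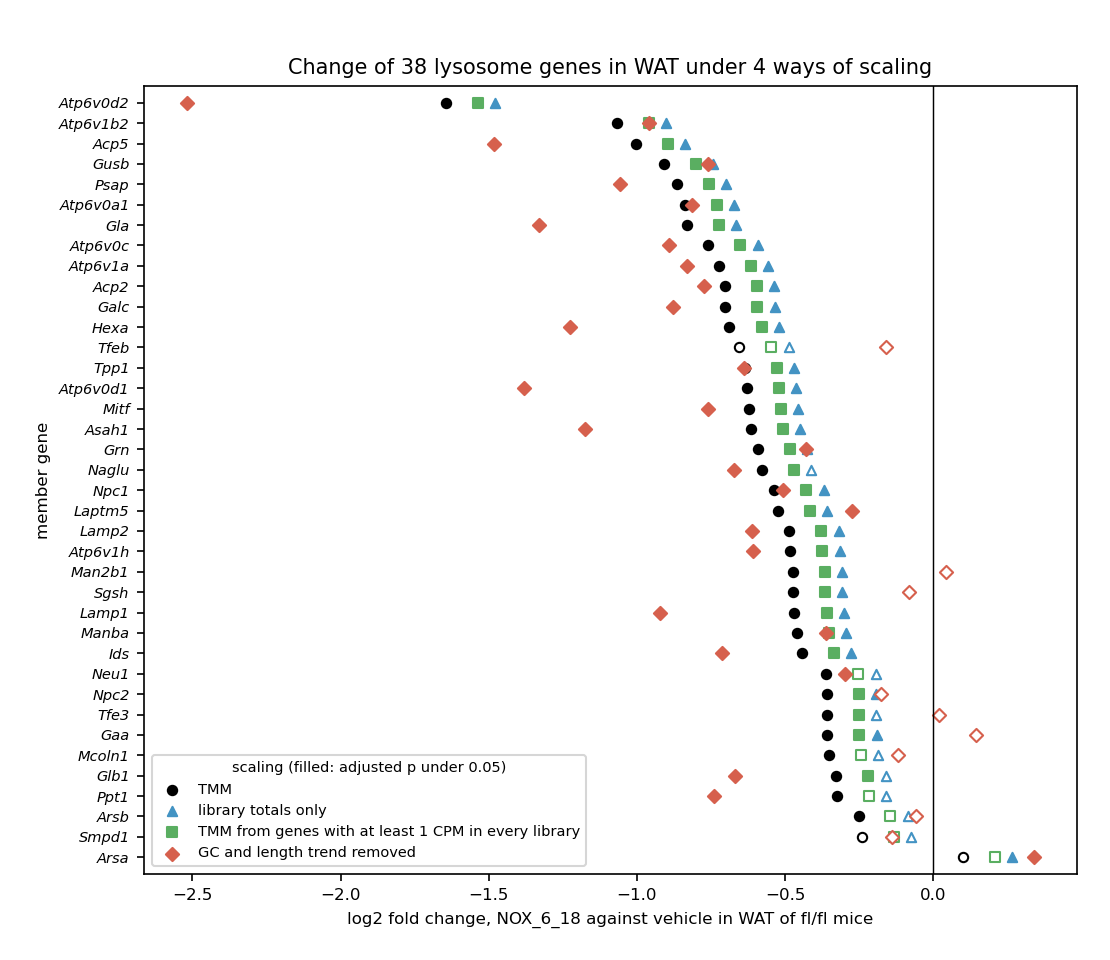
Log2 fold change of each of the 38 genes for NOX_6_18 in WAT of fl/fl mice under 4 ways of scaling (marker shapes); filled markers have an adjusted p under 0.05. Library totals move nearly all genes to the right of the TMM value, and the GC and length correction spreads them, with Gaa, Man2b1 and Tfe3 passing 0 (0.14, 0.04 and 0.02).

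Other genes of the pathway, from lists that hold none of the 38, were counted in the same fit. Of all genes tested in WAT, 13.2% were lower on NOX_6_18 and 12.4% for CKO. Among those with a mean of at least 10 CPM, 27.2 and 25.9% were lower and 18.4 and 17.8% higher. On NOX_6_18 in WAT of fl/fl mice, 16 of 19 other lysosomal enzymes and enzyme partners were lower and 0 higher (15 lower for CKO), led by Lipa, lysosomal acid lipase, at -1.21 ± 0.05 (adjusted p = 8.02e-07) and Pla2g15, a lysosomal phospholipase, at -0.84 ± 0.07. Of 12 other lysosomal membrane proteins 8 were lower (9 for CKO), with Cd63, a tetraspanin, at -0.94 ± 0.07 and Clcn7, a chloride-proton exchanger, at -0.62 ± 0.07. Of 11 other v-ATPase subunits and accessory proteins 9 were lower (8 for CKO), with Tcirg1, the a3 isoform, at -0.75 ± 0.06, and of 6 genes that sort enzymes to the lysosome 4 were lower in both, among them the mannose 6-phosphate receptor genes M6pr (-0.39 ± 0.06) and Igf2r (-0.69 ± 0.13). Genes around TFEB control were mixed. Of 16 genes of mTORC1 and folliculin signalling 8 were lower and 2 higher (6 and 2 for CKO), with Lamtor1, an anchor of mTORC1 on the lysosome, at -0.69 ± 0.08 and Rragc at -0.49 ± 0.07. Mtor, the kinase itself, was among the 2 that rose, at 0.67 ± 0.12 (adjusted p = 0.00337; named after its value was seen). Of 10 autophagy genes listed as TFEB targets 4 were lower and 1 higher (5 and 1 for CKO), with Wipi1 at -0.55 ± 0.09 and Gabarap at -0.44 ± 0.08.

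Promoters were searched because most of the 38 genes fell together and E-boxes are the sites of MiT/TFE factors. RefSeq promoters (GRCm38.p6) matched 33 of the 38 by symbol, and the 250 bases before the start were searched on both strands for the core CACGTG, for its extension TCACGTG and for the full palindrome TCACGTGA, each of which contains the one before it. CACGTG was in 9 of 33 members (27.3%), against 6.86% of all 27025 genes with a promoter and 8.47% of those tested in WAT. TCACGTG was in the same 9, against 3.58 and 4.73%, and TCACGTGA in 3 (9.09%), against 0.907 and 1.31%. A match describes these letters and is not evidence of binding. The 9 were Mcoln1, Lamp1, Glb1, Naglu, Gaa, Sgsh, Arsa, Atp6v1a and Gla. The 3 with the longest match are shown with Lamp1, which had 4 cores, and Arsa, the gene that did not fall; each runs 5′ to 3′ on the strand of the gene, all bases lie before the RefSeq start, and capitals mark the E-box.
Mcoln1: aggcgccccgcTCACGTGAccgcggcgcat
Atp6v1a: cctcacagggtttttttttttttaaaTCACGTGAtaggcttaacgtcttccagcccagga
Gla: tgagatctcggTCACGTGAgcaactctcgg
Lamp1: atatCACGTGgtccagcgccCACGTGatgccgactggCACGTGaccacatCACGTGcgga
Arsa: cttcaactcagtgTCACGTGttgtctgctc

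In the order shown these stretches are chr8:3500462-3500491 (plus strand), chr16:44139358-44139417 (minus), chrX:134601182-134601211 (minus), chr8:13159096-13159155 (plus) and chr15:89477425-89477454 (minus). In GENCODE M21 the Lamp1 stretch lies outside any gene, the Atp6v1a stretch in an intron of an Atp6v1a transcript that starts further upstream, the Gla stretch over an exon of the neighbour Hnrnph2, and those of Mcoln1 and Arsa overlap an annotated exon of their own gene. The first capital lies 46, 132, 195, 61 and 17 bases before the start, and Gla holds 2 copies of TCACGTGA of which 1 is shown. On NOX_6_18 in WAT, 8 of the 9 members with an E-box were lower with a median log2 fold change of -0.47 (from -0.83 to 0.10), and 22 of the 24 without a match were lower with a median of -0.61 (from -1 to -0.24). The 5 without a promoter entry, Atp6v0d2, Atp6v1b2, Atp6v1h, Asah1 and Npc1, were all lower with a median of -0.62. For CKO the medians were -0.43, -0.52 and -0.6 in the same order. Arsa and Atp6v1a, with 0.10 and -0.72, both carry an E-box.

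The response to NOX_6_18 in WAT was compared between the genotypes as labelled. In libraries labelled CKO, 0 of the 38 genes were called on NOX_6_18 against vehicle (edgeR; 0.0155% of all genes called; 2 members at an unadjusted p under 0.05; 0 by DESeq2 and by limma-voom), with a median of -0.019. On NOX_6_18, CKO against fl/fl also gave 0 (edgeR; 0.0348% of all genes; 0 members at an unadjusted p under 0.05; 0 by DESeq2 and by limma-voom), with a median of -0.004. Neither contrast compares the fl/fl vehicle libraries, which shared the fit and its estimate of spread, and fits without them also gave 0 in both (chosen after seeing the data). The interaction, the NOX_6_18 effect in CKO less that in fl/fl, was higher in 27 of 38 and lower in 0, against 6.71% of all genes higher, with a median of 0.573 and -0.11 over all genes. Among the 11293 genes with a mean of at least 10 CPM, 14.3% were higher and the median was 0.12. The interaction test uses the same fl/fl vehicle libraries again, which also stood apart in spermatid markers. The part of that difference in the result was not tested. With library totals, the GC and length correction and TMM from genes of at least 1 CPM, 20, 24 and 22 members were higher. The share of all called genes that were higher went from 26.5% to 12.5, 47.8 and 16.8%. Atp6v0d2 had the largest interaction, 1.52 ± 0.12 (adjusted p = 4.09e-05), and Psap the smallest adjusted p, with 0.83 ± 0.05 (6.92e-06).

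**Figure D5:**
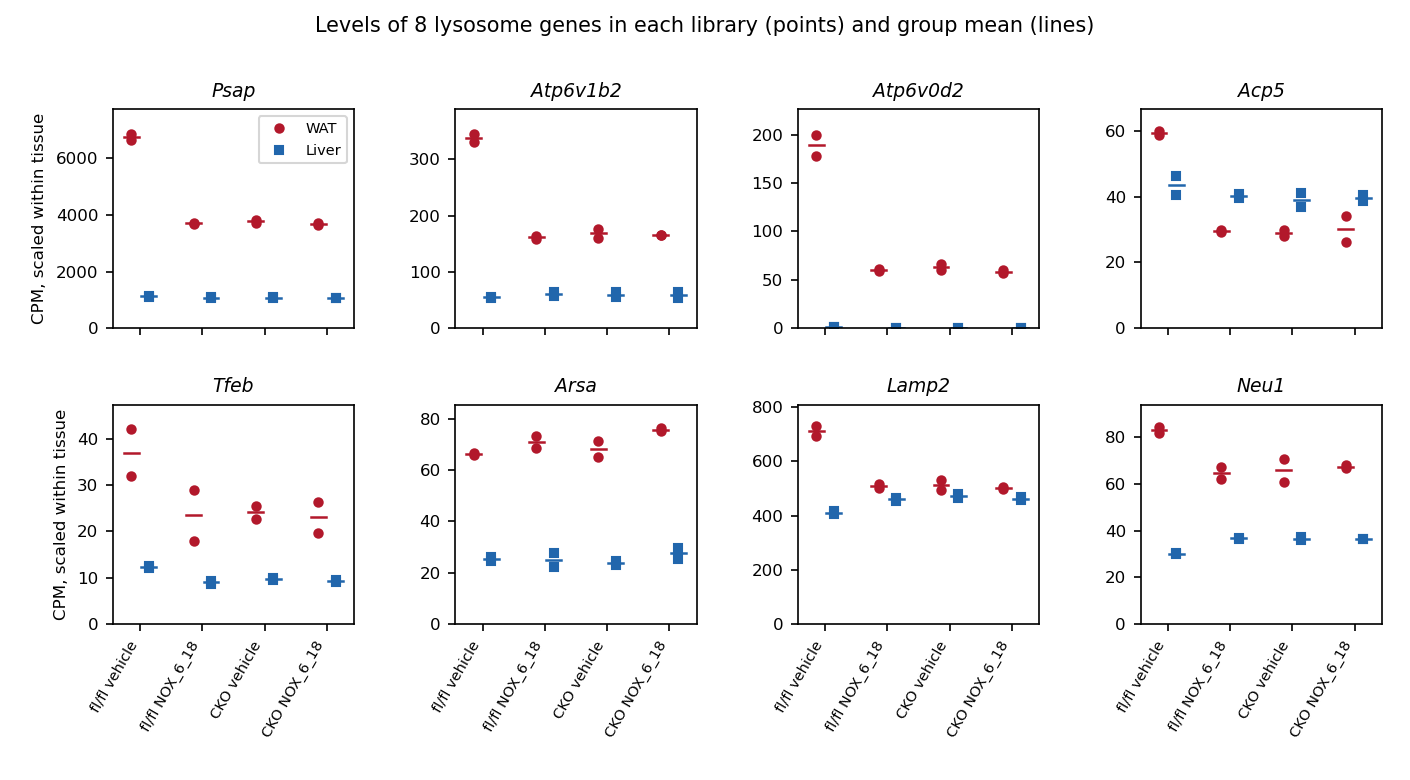
CPM scaled within tissue of 8 of the genes in each library (points) with the group mean (short lines), WAT as red circles and liver as blue squares; axes start at 0. In WAT the fl/fl vehicle pair lies above the other 3 groups in all but Arsa, and in liver Lamp2 and Neu1 lie lowest in that pair, at 406 to 415 and 29.9 to 30.5 CPM.

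In liver few of these genes changed. On NOX_6_18 in fl/fl mice 2 of 38 were higher and 0 lower, against 3.78% of all 19515 genes higher, and the median was 0.041. Among liver genes with a mean of at least 10 CPM, which include 35 of the 38 and all those called, 6.96% were higher on NOX_6_18 and 7.12% for CKO. For CKO on vehicle 3 of 38 were higher and 0 lower, against 3.96%, with a median of 0.016. The 2 liver libraries labelled CKO on vehicle were the least alike of the liver groups (mean chi-square per gene of 91.4). Lamp2 (chrX:38401357-38456454, minus strand) had a level of 415.2 and 406.2 CPM in vehicle-treated fl/fl mice, 455.4 and 464.1 on NOX_6_18, 464.3 and 479.3 labelled CKO on vehicle and 457.9 and 468 labelled CKO on NOX_6_18. Both controls lay below all others, with differences of 0.16 ± 0.04 (adjusted p = 0.0488) and 0.20 ± 0.04 (adjusted p = 0.0206). Neu1 (chr17:34931253-34935953, plus strand), the sialidase NEU1, stood at 29.9 and 30.5 CPM and then at 37 and 36.6, 36 and 37.2, and 36.5 and 36.5 in the same order, again with no overlap (0.29 ± 0.07, adjusted p = 0.0463, and 0.28 ± 0.07, adjusted p = 0.0492). Atp6v0d1 stood at 35.8 and 33.3 CPM, 39.4 and 39.2 on NOX_6_18 (0.19 ± 0.07, adjusted p = 0.186), and 44.5 and 44.8 labelled CKO on vehicle (0.37 ± 0.07, adjusted p = 0.0161).

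With any 1 of the 4 libraries compared left out, 0 were called on NOX_6_18. For CKO, 1 of the 3, Atp6v0d1, was called without the first fl/fl vehicle library, and 0 without the second or without the first CKO library. Without the second CKO library none of the 3 was called but Atp6v0c was, which was lower (-0.43, adjusted p = 0.0462). Kupffer cell markers, of the resident liver macrophages, were at a higher sum outside the fl/fl vehicle pair, at 1220 and 1260 CPM in fl/fl vehicle libraries and 1472 to 1523 in the other 6 (121%). Neutrophil markers stood at 10.2 and 13.5 against 76.3 to 86 CPM. Lipid-associated macrophage markers instead summed to 1168 and 1173 against 958 to 996 CPM (83.5%), with 4 lower and 1 higher of 8 on NOX_6_18. Gpnmb stood at 17.8 and 17.9 against 1.22 to 2.83 CPM, and Spp1 at 454 and 467 against 292 to 317. Fabp5 went the other way, at 38.1 and 36.5 against 50 to 55.9 CPM. Cd36 stood at 411 and 391 against 418 to 436 CPM, and Cd9 overlapped. The part of these marker lists in the result was not tested. Of the 38 genes, the fl/fl vehicle pair lay below the other 6 liver libraries in 8, above in 6 and overlapped in 24. These orders were not counted over all liver genes, so there is no share to set beside them and nothing is read from them. Atp6v0d2 was barely detected in liver, with 1.37 and 1.17 CPM in vehicle-treated fl/fl mice and 0 to 0.609 in the other 6. Its fitted change of -3.46 ± 1.31 on NOX_6_18 did not pass (adjusted p = 0.203), though DESeq2 called Atp6v0d2 lower (adjusted p = 0.0374). Tfeb stood at 12 and 12.6 CPM against 8.73 to 9.97 in the other 6, with no overlap, and -0.46 ± 0.12 did not pass (adjusted p = 0.0633). In libraries labelled CKO on NOX_6_18 against vehicle, and in CKO against fl/fl on NOX_6_18, 0 of 38 were called by edgeR (0.0359% of all genes in each), with 1 member at an unadjusted p under 0.05 in each; DESeq2 gave 0 and 1. Atp6v0c had the smallest edgeR adjusted p of the 38 in the second comparison (-0.68 ± 0.11, adjusted p = 0.295). It stood at 110.1 and 105.2 CPM in fl/fl and 64.6 and 69.8 labelled CKO, all on NOX_6_18. The treatment by genotype interaction in liver called 0 of 38 (edgeR; 2.45% of all genes; 7 members at an unadjusted p under 0.05; 0 by DESeq2). Of the other pathway lists, Scarb2, a lysosomal membrane receptor, and Fnip1 and Flcn, partners in the folliculin complex, were higher in both liver comparisons (0.31 ± 0.04, 0.48 ± 0.07 and 0.64 ± 0.14 on NOX_6_18).

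The difference between tissues was tested in a fit of all 16 libraries (26751 genes). The NOX_6_18 effect in fl/fl mice was lower in WAT than in liver for 27 of 38 genes and higher for 0, against 7.2% of all genes lower, with a median difference of -0.58. The CKO effect on vehicle was lower in WAT for 26 and higher for 0, against 6.75%, with a median of -0.561. Under the same 3 scalings 21, 25 and 25 members were lower for NOX_6_18 and 18, 24 and 23 for CKO. The share of all called genes that were higher went from 51.1% to 71.9, 34.4 and 65.3% and from 52.4% to 72.5, 35.4 and 65.5%. Atp6v1b2 differed most among the genes called, by -1.21 ± 0.14 (adjusted p = 0.000103) and -1.11 ± 0.14 (adjusted p = 0.000183), and Psap had the smallest adjusted p, with -0.79 ± 0.05 (8.43e-07) and -0.76 ± 0.05 (1.15e-06). Atp6v0d2 was not called here, at 1.94 ± 0.84 (adjusted p = 0.165) for NOX_6_18, with a liver level near 0.

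Levels between the tissues were compared in the same fit. WAT exceeded liver in 27 of 38 genes and was lower in 2 among fl/fl mice on vehicle (21.6 and 16.5% of all genes), in 17 and 12 among fl/fl on NOX_6_18 (33.1 and 18.3%), in 16 and 11 in those labelled CKO on vehicle (33.7 and 18.4%) and in 17 and 12 in those labelled CKO on NOX_6_18 (33.3 and 18.1%). These splits depended on the scaling: with library totals alone they were 38 and 0, 35 and 1, 37 and 1, and 36 and 1. TMM factors were 0.68 to 0.70 in liver and 1.33 to 1.496 in WAT and mitochondrial genes took 43 to 44.9% of counts in liver and 2.31 to 3.61% in WAT. Totals shifted the median of all genes by 0.944 to 1.106 and the share of called genes that were higher in WAT from 56.7, 64.4, 64.7 and 64.8% to 88.6, 92.3, 92.2 and 92.2%. After the GC and length correction the splits were 23 and 5, 11 and 17, 13 and 17, and 13 and 18.

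Between genes, levels were compared as CPM per kilobase of exon on the scale of all 16 libraries. Psap ranked first in both tissues, with 1690 CPM per kilobase in WAT and 595 in liver of fl/fl mice on vehicle. Lamp1 (304 and 221) and Grn (207 and 104) followed in both. By length of the longest transcript in place of all exons, Psap and Lamp1 were again first and second, but Lamp2 passed Grn in liver. The least abundant in WAT per kilobase of exon were Galc (4.14) and Tfeb (4.48), and Sgsh (7.53) by longest transcript, and in liver Atp6v0d2 (0.672) and Mitf (1.27). The order changed most between tissues for Atp6v0d2, which ranked 13 in WAT and 38 in liver (15 and 38 by longest transcript), so the subunit whose level fell most in WAT was also the least abundant of the 38 in liver.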

How the data were processed

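The authors deposited raw read counts per gene, 1 table for each of the 16 libraries; the submitters' processing notes list HISAT, featureCounts 1.5.0, DESeq 1.8.3 and GRCm38 and give no roles, and the labels' protocols name total RNA and a stranded KAPA kit. The strand setting of the counting and the annotation release were not given in the sources used here. Groups came from sample titles. Of 55421 listed genes, 99.5% matched a symbol in GENCODE M21; no 2 libraries held identical values (0 pairs).

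Counts were tested with edgeR 4.0.16 in R 4.3.3 (quasi-likelihood, TMM, filterByExpr by group, 1 coefficient a group, Benjamini-Hochberg over all genes of the fit, threshold 0.05 on the adjusted p). Each tissue's 8 libraries were fitted together, since 2 in a group say little of their spread; all 16 were used between tissues. SE was obtained as |log2 fold change| / √F. The fit was run on simulated counts in which a small set of genes changed, as many up as down. That run does not cover the unequal shifts of the WAT libraries. CPM are counts over TMM-scaled totals. Depth limits genes of low level: 3 counts are 0.0494 to 0.0658 CPM, counting error only.

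Fold changes were printed for at most 25 members of a comparison, first those whose sign differed from the median, then the largest; others are said to be chosen after seeing values. The members, the lists and the tests were chosen with earlier results of these data known. Of 43 promoter windows of members, 36 matched the start of a GENCODE transcript. Exons of Hexa, Galc, Glb1, Arsa, Arsb, Sgsh, Npc1, Ppt1, Acp2, Acp5, Grn, Lamp1 and Atp6v1h overlap another gene, so their counts are uncertain. Alternatives were library totals, relative log expression (RLE) factors, a GC and length correction, no filter, DESeq2 1.42.0, limma-voom (limma 3.58.1), a stricter filter (50 counts in 2 or more libraries), the replicate number as block, only the groups compared (all 16 libraries for an interaction), a minimum fold change of 1 on the log2 scale, each library left out in turn, and, chosen after seeing the data, TMM from genes of at least 1 CPM in every library and a fit without the fl/fl vehicle libraries.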

Additional observations from a re-analysis of the deposited data

Results flagged for a closer look

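The effect of NOX_6_18 differed between genotypes in WAT for 27 of the 38 genes by the interaction term (edgeR, adjusted p under 0.05). The 5 largest among them were Atp6v0d2 at 1.52 on the log2 scale, Acp5 at 1.06, Atp6v1b2 at 1.04, Atp6v0c at 0.98 and Atp6v0a1 at 0.92.

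The effect of NOX_6_18 in fl/fl mice differed between WAT and liver for 27 of the 38 genes by the tissue interaction. The 5 largest among them were Atp6v1b2 at -1.21, Atp6v0c at -0.91, Acp5 at -0.88, Acp2 at -0.88 and Galc at -0.87.

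The effect of CKO on vehicle differed between WAT and liver for 26 of the 38 genes. The 5 largest among them were Atp6v1b2 at -1.11, Atp6v0d1 at -0.89, Acp5 at -0.86, Galc at -0.86 and Atp6v0a1 at -0.85.

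All 3 tests share the vehicle-treated fl/fl libraries from WAT, which also differ from the other WAT libraries in spermatid markers (16.4 and 20.9 against 631 to 700 CPM); the part of this difference in the result was not tested.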

How the results depend on the processing

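Of the 35 genes lower in WAT, 22 were called under all 14 alternatives that change the fit on NOX_6_18 and 21 for CKO. With 1 library left out, the members called were 27 to 35 on NOX_6_18, 29 to 33 for CKO on vehicle and 20 to 26 for the interaction, and 22 to 28 and 21 to 26 for the tissue interactions of NOX_6_18 and CKO; between the tissues they were 28 to 29, 22 to 27, 23 to 25 and 25 to 27 in the order of the report. With the GC and length trend removed the direction turned for Gaa (0.14 on NOX_6_18, 0.15 for CKO and -0.16 for the interaction), Man2b1 (0.0414, 0.0268 and -0.0401) and Tfe3 (0.0199 and 0.0859); the cause was not tested.

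With a minimum change of 1 on the log2 scale, the members called were 3 in WAT on NOX_6_18, 3 for CKO and 3 for the interaction, 0 and 0 in liver, 11, 6, 6 and 7 between the tissues and 1 and 1 for the tissue interactions. The 2 liver genes called on NOX_6_18 became 0 with library totals, the replicate block, only the groups compared or any library left out (0 to 0), and 1 with the GC and length correction, no filter or TMM from genes of at least 1 CPM; DESeq2 gave 2, of which 1 was higher and 1, Atp6v0d2, lower. The 3 for CKO in liver became 0 with only the groups compared and 0 to 1 with a library left out, where without the second CKO library the 1 was a different gene, Atp6v0c, and lower. CKO against fl/fl on NOX_6_18 in liver gave 1 with no filter, DESeq2 or only the groups compared, and the liver interaction 0 to 1 with a library left out. The cause was not tested.

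Replicate differences of 2 groups correlated at -0.031 to 0.157 over genes in WAT and -0.034 to 0.012 in liver. The highest, 0.157, was between fl/fl and CKO libraries of WAT, both on vehicle. Low correlations alone do not settle whether libraries of the same replicate number were paired. With the replicate number as a block, 35 members were called in WAT on NOX_6_18, 34 for CKO, 26 for the interaction, and 0 and 2 in liver.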
